A study of Mus musculus with 2 samples.

Results

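The genes described here are 31 genes of cholesterol and fatty acid synthesis, taken by gene symbol from the 32285 genes of each deposited matrix. They comprise 7 enzymes of the mevalonate pathway, 11 enzymes that carry squalene through to cholesterol, 9 enzymes of fatty acid synthesis and desaturation, 3 regulators and the sterol carrier Stard4. All 31 symbols were found in both matrices. The study dissociated the pituitary glands of male mice of the strain C57BL/6 into single cells, lysed red cells and sequenced RNA tags of each cell in droplets, at the ages of 2 months (young) and 20 months (old). The cells of 10 glands were pooled into 1 library per age, so each age was measured once, no difference between ages could be tested against animals, and no p-value is given. Every interval below is a 95% interval for counting error alone, exact Poisson for levels, exact conditional Poisson for ratios and Clopper-Pearson for shares.

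Cells make cholesterol from acetyl-CoA through mevalonate, farnesyl diphosphate, squalene and lanosterol. When sterol in the endoplasmic reticulum is low, the escort protein SCAP carries the membrane-bound factor SREBP-2 to the Golgi, where proteases release its active part, and it then switches on most genes of the pathway. INSIG proteins hold SCAP back when sterol is plentiful, and Insig1 is itself a target of the released factor. The related factor SREBP-1, encoded by Srebf1, acts mainly on genes of fatty acid synthesis.

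Promoters of these genes are known for binding sites of SREBP next to sites of the partner factors NF-Y and Sp1. RefSeq promoters of the build GRCm38.p6, from 250 bases before to 50 after each listed start, were at hand for 24 of the 31 members. They were searched on both strands for TCACNCCAC (an SREBP element), CCAAT (NF-Y), GGGCGG (Sp1) and CACGTG (E-box), with overlaps between motifs allowed. CCAAT stood in 20 of the 24 members and in 14 of the 15 mevalonate and sterol enzymes with an entry, against 42.8% of the 11075 genes with an entry and at least 20 UMIs in somatotroph-like cells. GGGCGG stood in 20 of 24, against 67.4% of those genes, and the E-box in 4 (Hsd17b7, Sc5d, Dhcr7 and Insig1), against 11.6%. The strict SREBP element stood in 1 member, Hmgcs1, against 1.31%. A match describes these letters in this window and is not a measured binding site. The stretches below belong to the 6 members with a promoter entry that had the highest young levels in somatotroph-like cells among those at least 1.5-fold higher in sterol-rich cells of both libraries, by the plain ratio of CPM, as described further on (Msmo1, Cyp51 and Sc5d are among the genes by which those cells were chosen). Srebf2, at 1.495 in the old library, fell short of that ratio. Each is written 5′ to 3′ on the gene's strand and ends before the start site, with capitals for CCAAT, its reverse complement ATTGG or, in Hmgcs1, TCACCCCAC.
Hmgcs1, chr13:119690102-119690326, plus strand: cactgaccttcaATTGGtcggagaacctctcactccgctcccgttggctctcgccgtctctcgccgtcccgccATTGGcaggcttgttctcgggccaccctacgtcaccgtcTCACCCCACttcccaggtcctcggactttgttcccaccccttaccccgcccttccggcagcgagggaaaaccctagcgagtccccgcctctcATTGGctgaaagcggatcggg
Msmo1, chr8:64733613-64733750, minus strand: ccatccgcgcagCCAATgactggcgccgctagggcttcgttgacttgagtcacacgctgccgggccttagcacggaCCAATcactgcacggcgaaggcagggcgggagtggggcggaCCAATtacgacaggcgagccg
Idi1, chr13:8885549-8885605, plus strand: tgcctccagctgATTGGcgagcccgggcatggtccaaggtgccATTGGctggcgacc
Insig1, chr5:28071184-28071216, plus strand: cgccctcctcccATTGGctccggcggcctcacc
Cyp51, chr5:4104706-4104738, minus strand: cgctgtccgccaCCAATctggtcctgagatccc
Sc5d, chr9:42264304-42264336, minus strand: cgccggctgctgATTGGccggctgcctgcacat
Hmgcs1 and Msmo1, the 2 members with the highest young levels, show 3 CCAAT boxes each in these stretches. In Hmgcs1 the SREBP element spans positions -137 to -129 from the start, between the second and the third box.

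After filters the libraries held 8531 young and 9017 old cell barcodes, with medians of 6344 and 3146 UMIs, and 28 of these barcodes occurred in both. A cluster whose profile matched that of near-empty droplets held 3 young and 5769 old barcodes and was left out. The young library then rested on 8528 barcodes and the old one on 3248. Clusters were formed without the 31 members and 28 further genes of lipid metabolism. They were named by marker genes, and 9 classes had at least 50 cells in each library: somatotroph-like (4314 young and 1311 old cells), corticotroph-like (1246 and 291), stem cell-like (983 and 260), macrophage-like (757 and 374), lactotroph-like (362 and 269), T or NK cell-like (151 and 153), endothelial cell-like (126 and 99), B cell-like (125 and 64) and pituicyte-like (56 and 87). The endothelial cell-like cluster was also led by Dcn, a gene of fibroblasts. Its fibroblast markers summed to 5004 young and 2938 old CPM (UMIs per 1000000) of all UMIs and its endothelial markers to 4749 and 4639, and the part of this mixture in the class's values was not tested. All 5 somatotroph markers were detected in somatotroph-like cells of both libraries, and Gh made up 44.4% of their summed UMIs in the young library and 33.8% in the old one. Markers of corticotrophs were detected there as well, summing to 637 young and 4719 old CPM of all UMIs, and free RNA was estimated at 6.65% and 6.10% of the UMIs of these cells. The part of this carry-over was tested only by subtracting it, for the age ratios of somatotroph-like cells and the count of members by highest class. The fraction estimated in somatotroph-like cells was used for every class in that count. Age ratios of the other classes were not recomputed.

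Levels are UMIs summed over the cells of a class and library, in CPM of a total from which 7 hormone and 13 mitochondrial genes were taken out. UMIs count RNA molecules from their 3′ ends, so levels are not scaled to gene length. Somatotrophs, the growth hormone cells, carried most RNA of the mevalonate and sterol enzymes. The 18 enzymes summed to 1940 CPM in young and 1707 CPM in old somatotroph-like cells. Lactotroph-like cells followed at 938 and 844 CPM, corticotroph-like cells at 751 and 668 CPM and stem cell-like cells at 731 and 565 CPM. Macrophage-like cells were lowest of the 9 classes in both libraries, at 291 and 261 CPM. Barcodes of 10 to 100 UMIs, taken as free RNA, had 970 young and 633 old CPM, under the somatotroph-like level in both libraries, above the other 8 classes in the young one and above 6 of them in the old one. The highest class of each member was counted in each library, and somatotroph-like cells led in 13 of the 31 members in the young library and in 13 in the old one. Of all genes compared, 14% were highest in somatotroph-like cells in the young library and 8.43% in the old one. With all UMIs as the total, which hold much Gh in this class, somatotroph-like cells led in 11 members in the young library, and in the old one pituicyte-like cells led in the most, 10. Hmgcs1, Idi1, Fdps, Fdft1, Sqle, Lss, Cyp51, Msmo1, Hsd17b7, Sc5d, Insig1 and Stard4 were among the 13 in both libraries, Dhcr7 in the young and Srebf2 in the old library alone.

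**Figure D1:**
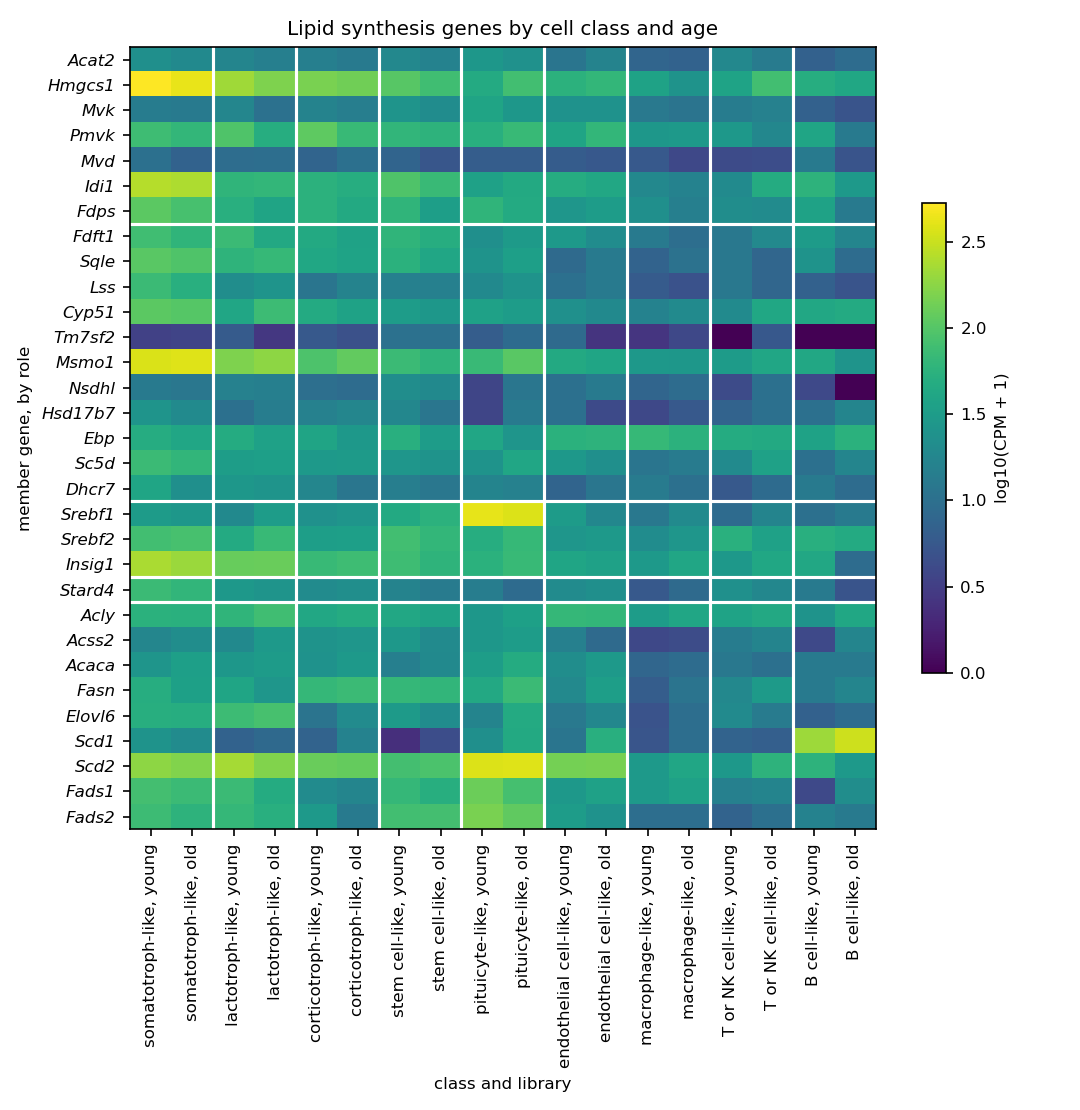
Level of each of the 31 members (vertical axis, grouped from the top as mevalonate enzymes, sterol enzymes, regulators, Stard4 and fatty acid enzymes) in 9 classes of each library (horizontal axis), as log10(CPM + 1) in colour. Hmgcs1, Idi1, Msmo1 and Insig1 stand out in the somatotroph-like columns, Srebf1 and Scd2 in the pituicyte-like columns and Scd1 in the B cell-like columns.

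In the mevalonate pathway Hmgcs1, which encodes the synthase of hydroxymethylglutaryl-CoA, had 528 CPM (520 to 537) in young and 429 CPM (415 to 443) in old somatotroph-like cells. The next class, lactotroph-like cells, had 214 and 155 CPM, and macrophage-like cells had 36.5 and 23.9 CPM. Thinned to 1000 UMIs, 34.0% of young somatotroph-like cells had an Hmgcs1 UMI (unthinned 67.1%, median depth 4607.5 UMIs without hormone and mitochondrial genes), against 2.51% of young macrophage-like cells (unthinned 10.7%, median 4605 UMIs). In the old library these thinned shares were 26.9% and 3.21%. The barcodes of 10 to 100 UMIs had 152 young and 64.9 old CPM of Hmgcs1, above the macrophage-like level. Free RNA was not estimated for macrophage-like cells, and its part in their share was not tested. Idi1, the isomerase of the isoprene units, had 259 and 246 CPM in somatotroph-like cells, and the next class, stem cell-like, had 92.1 and 68.7 CPM. Fdps, which joins these units to farnesyl diphosphate, had 107 and 84.2 CPM. The remaining mevalonate members did not share this distribution. Acat2, a thiolase, and Mvk, mevalonate kinase, were highest in pituicyte-like cells in both libraries, on 10 to 20 UMIs there. Pmvk, the next kinase, was highest in corticotroph-like cells at 112 young and 68.1 old CPM, level with pituicyte-like cells at 68.0 CPM in the old library. Mvd, the decarboxylase, was at or under 12.1 CPM in every class, and its highest class differed between the libraries.

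Among the sterol enzymes Msmo1, a methylsterol oxidase, was the most abundant, at 368 young and 389 old CPM in somatotroph-like cells and 157 and 180 CPM in lactotroph-like cells, the next class. Cyp51, the lanosterol demethylase, had 109 and 101.5 CPM in somatotroph-like cells, and Sqle, squalene epoxidase, had 106 and 92.6 CPM. Lss, which closes the sterol rings, had the largest lead over the next class among these 11 enzymes in the young library, with 70.9 CPM in somatotroph-like and 20.5 CPM in lactotroph-like cells. In the old library it had 51.1 and 24.5 CPM. Fdft1, squalene synthase, was highest in the same class but by little, at 76.4 CPM against 70.3 CPM in lactotroph-like cells of the young library, which lies within counting error. Sc5d, a sterol desaturase, had 70.9 and 60.6 CPM in somatotroph-like cells, Hsd17b7, a ketoreductase of the demethylation steps, 24.6 and 18.9 CPM, and Dhcr7, the last reductase of the route, 39.0 and 21.7 CPM. Ebp, a sterol isomerase, had its highest level in macrophage-like cells in the young library (65.6 CPM) and in endothelial cell-like cells in the old one (57.3 CPM). Tm7sf2, a sterol reductase, stayed under 10 CPM in all 9 classes, and Nsdhl, a sterol dehydrogenase, was highest in stem cell-like cells, at 20.8 young and 18.5 old CPM.

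Fatty acid genes had another distribution. The 9 enzymes summed to 821 young and 862 old CPM in pituicyte-like cells, the glia of the posterior lobe, and to 552 and 497 CPM in somatotroph-like cells. Pituicyte-like cells led in 7 of the 31 members in the young library, where 15.9% of all genes were highest in that class, and in 8 in the old library, where it was 14.8%. Of these, 4 young and 5 old were fatty acid enzymes, and the others were Acat2, Mvk and Srebf1 in both libraries. Scd2, a stearoyl-CoA desaturase, had 375 and 393 CPM there, against 180 and 160 CPM in somatotroph-like cells. Fads2 and Fads1, desaturases of polyunsaturated fatty acids, had 150 and 129 CPM in young and 115 and 82.6 CPM in old pituicyte-like cells. Srebf1 had the largest lead of its highest class among the 31 members in both libraries, with 421 young and 376 old CPM in pituicyte-like cells against 44.2 and 55.0 CPM in stem cell-like cells, the next class. Somatotroph-like cells had 29.9 and 27.0 CPM of Srebf1. Scd1, the paralog of Scd2, was highest in B cell-like cells, with 211 CPM (70 UMIs) in the young and 326 CPM (79 UMIs) in the old library. Somatotroph-like cells had 24.2 and 19.8 CPM of Scd1. Elovl6, an elongase, was highest in lactotroph-like cells (73.2 and 84.0 CPM) and Fasn, fatty acid synthase, in corticotroph-like cells (64.1 and 70.7 CPM), and Fasn differed from the next class by less than counting error. Acly, Acss2 and Acaca, which make cytosolic acetyl-CoA and malonyl-CoA, had levels between 2.94 and 75.9 CPM over the 9 classes of both libraries, with no class far ahead.

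Of the regulators, Insig1 had 237.5 young and 204.5 old CPM in somatotroph-like cells and 121 and 126 CPM in lactotroph-like cells. Srebf2 was more even, with 78.0 and 83.5 CPM in somatotroph-like cells, 78.7 and 62.3 CPM in stem cell-like cells and 20.3 and 25.8 CPM in macrophage-like cells, its lowest class. Stard4, which moves cholesterol between membranes, had 70.7 and 60.9 CPM in somatotroph-like cells and 27.6 and 24.5 CPM in lactotroph-like cells.

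Somatotroph-like cells did not carry sterol genes evenly. They fell into 5 clusters, although none of the 31 members took part in the clustering. Cluster 8, with 1108 young and 372 old cells, summed to 4311 young and 3359 old CPM of the 18 mevalonate and sterol enzymes. Cluster 2 (1409 and 511 cells) had 2008 and 1603 CPM, cluster 1 (764 and 62 cells) 1203 and 742 CPM, cluster 11 (719 and 167 cells) 837 and 763 CPM, and cluster 12 (314 and 199 cells) 629 and 595 CPM. Clusters 8 and 2 were thus highest in both libraries. Hmgcs1 had 1449 young and 1028 old CPM in cluster 8 but 54.2 and 63.2 CPM in cluster 12. Cluster 8 was taken for the next comparison because it had the highest young sum of the 18 enzymes. That choice itself favours higher young levels of these 18 members, so their count is not independent of it. Against the other 4 clusters together, cluster 8 was at least 1.5-fold higher in 20 of 31 members and lower in 2 in the young library, where the shares of all genes were 33.3% and 21.9%. In the old library 15 were higher and 3 lower (Mvk, Fdft1 and Nsdhl), with shares of 26.6% and 21.5%. Fdft1 went the other way in both libraries, with 50.8 CPM in cluster 8 against 80.4 CPM in the others (ratio 0.632, 0.541 to 0.734) in the young and 32.5 against 64.3 CPM (0.507, 0.360 to 0.696) in the old library. Msmo1 was 3.07-fold and 2.92-fold higher in cluster 8, at 881 and 867 CPM. Insig1 was 2.999-fold and 2.62-fold higher, Stard4 3.12-fold and 2.50-fold and Srebf2 2.22-fold and 1.79-fold. Srebf1 had 1.497-fold (1.25 to 1.78) and 1.33-fold (0.933 to 1.86) the level of the other clusters. The fatty acid enzymes summed to ratios of 1.47 and 1.18. Ebp, the other lower member of the young library, had 28.4 against 51.3 CPM there (0.553, 0.449 to 0.675) and 33.3 against 41.3 CPM in the old one (0.806, 0.570 to 1.11).

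Measures of cell quality moved with these clusters. The nuclear RNA Malat1 made up a median of 7.96% of UMIs in young and 9.18% in old cells of cluster 8, mitochondrial genes 10.9% and 9.34%, and Gh 18.6% and 12.3%. In cluster 2 these medians were 1.85% and 2.55% for Malat1, 2.82% and 2.66% for mitochondrial genes, and 42.0% and 32.7% for Gh. Cluster 11 had medians of 8.47% and 9.67% for mitochondrial genes, 3.61% and 6.85% for Malat1, and 27.8% and 19.6% for Gh. Its sterol sums were 837 and 763 CPM. Cells of cluster 12 held a median of 0.0725% and 0.191% Malat1. The part of these measures in the sterol levels was not tested beyond the restricted comparisons given below.

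To ask whether sterol genes varied together from cell to cell, the 18 enzymes were divided into 9 scoring and 9 held-out genes. Each somatotroph-like cell was thinned to 1000 UMIs without hormone and mitochondrial genes, which left out 37 of 4314 young and 5 of 1311 old cells. Sterol-rich cells were those with the most UMIs of the scoring genes (Acat2, Mvk, Mvd, Fdps, Sqle, Cyp51, Msmo1, Hsd17b7 and Sc5d), at the lowest whole count that at most 10% of cells reached. That count was 4 in the young library, reached by 214 of 4277 cells (5.00%), and 3 in the old one, reached by 98 of 1306 cells (7.50%). The groups are ranges of a continuous count: 105 young cells lay at the limit and 264 were 1 UMI under it, and 57 and 164 did so in the old library. The scoring genes were 4.02-fold higher in the young and 2.83-fold higher in the old rich cells, which the choice of cells itself brings about.

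**Figure D2:**
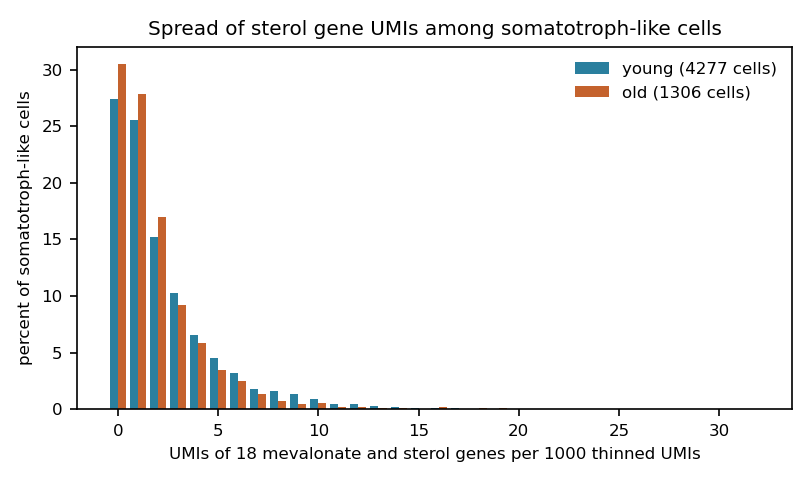
Share of somatotroph-like cells (vertical axis, percent) by the number of UMIs of the 18 mevalonate and sterol enzymes among 1000 thinned UMIs (horizontal axis), for 4277 young and 1306 old cells. Both distributions run down from 0 in a long tail without a second peak, and the median is 1 UMI in each library.

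The count of the 18 enzymes varied more than their mean accounts for in a Poisson count, for which variance over mean is 1. It was 3.16 among young and 2.62 among old somatotroph-like cells, at means of 2.19 and 1.78 UMIs. The next highest were young lactotroph-like cells at 1.99 (mean 0.997) and old corticotroph-like cells at 1.60 (mean 0.680). The 9 fatty acid genes stayed near 1 in somatotroph-like cells, at 1.09 and 1.07, with means of 0.581 and 0.475 UMIs. At equal relative spread this measure goes up with the mean. It therefore does not rank classes or gene sets of unlike level by their relative spread, and that was not compared. Across the thinned somatotroph-like cells of 1 library, which share a library and a depth, scoring and held-out counts correlated at Pearson's r = 0.46 in the 4277 young and 0.36 in the 1306 old cells. The sterol count and the fatty acid count correlated at 0.12 and 0.10.

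The held-out genes, which took no part in choosing the cells, were higher in the rich cells of both libraries. They summed to 3217 CPM in the 214 rich and 1043 CPM in the 4063 other young cells, a ratio of 3.09 (2.97 to 3.21). In the old library they summed to 1750 CPM in 98 rich and 859 CPM in 1208 other cells, a ratio of 2.04 (1.90 to 2.18). Of the 22 members not used for scoring, 11 were at least 1.5-fold higher in young and 7 in old rich cells, while 20.6% of all genes were in the young library and 12.3% in the old one. None was lower by that fold in the young library and 1 was in the old one, where the shares of all genes were 18% and 11.8%. These calls add 0.5 UMI to each count, by which Tm7sf2 (3 UMIs in young rich cells, ratio 1.46) and Srebf2 in the old library (1.495) reached the fold. The median log2 ratio of the 22 was 0.60 and 0.28, against 0.07 and 0.02 over all genes.

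Hmgcs1 showed the difference with the most UMIs. It had 1864 CPM in rich and 485 CPM in other young cells, a ratio of 3.84 (3.65 to 4.05), and 906 and 391 CPM in the old library, a ratio of 2.31 (2.10 to 2.54). Lss was 4.11-fold (3.57 to 4.71) and 2.42-fold (1.82 to 3.16) higher. Idi1 was 3.36-fold (3.11 to 3.63) and 2.16-fold (1.90 to 2.45) higher. Dhcr7 was 1.91-fold (1.46 to 2.46) and 1.85-fold (1.13 to 2.91) higher. Other enzymes of the same chain did not follow. Fdft1 had ratios of 0.902 (0.688 to 1.16) and 1.34 (0.965 to 1.83), Pmvk of 1.00 (0.773 to 1.28) and 1.16 (0.822 to 1.59), Ebp of 0.963 (0.688 to 1.31) and 1.08 (0.688 to 1.63), and Nsdhl of 0.924 and 0.942. Their intervals include 1, and the upper bounds for these genes in the young library stand under the ratios of Hmgcs1, Lss and Idi1.

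Insig1 and Stard4 were higher along with the enzymes. Insig1 had 643 CPM in rich against 224 CPM in other young cells (ratio 2.87, 2.62 to 3.12) and 374 against 191 CPM in old ones (1.95, 1.69 to 2.26). Stard4 was 3.28-fold (2.81 to 3.81) and 2.44-fold (1.89 to 3.11) higher. Both factors of the SREBP family were members, and the difference between their ratios was not tested. Srebf2 had 159 against 75.4 CPM in the young (2.10, 1.76 to 2.50) and 121 against 80.6 CPM in the old library (1.495, 1.15 to 1.92). Srebf1 had ratios of 1.02 (0.669 to 1.498) and 1.16 (0.674 to 1.88), on 27 and 18 UMIs in rich cells.

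Fatty acid genes differed less. Their sum was 1.46-fold (1.35 to 1.57) higher in young rich cells and 1.06-fold (0.942 to 1.19) in old ones. Fasn (2.06, 1.63 to 2.56), Acaca (1.65, 1.15 to 2.31) and Scd2 (1.63, 1.43 to 1.85) passed 1.5-fold in the young library. The young ratio of Acaca was under 1 with at most 10% mitochondrial UMIs (0.987) and in cluster 2 alone (0.916). In the old library their ratios were 1.21 (0.761 to 1.84), 1.35 (0.867 to 2.03) and 1.28 (1.05 to 1.55). Scd1 was lower in old rich cells (0.415, 0.133 to 0.991) on 5 UMIs, and this ratio turned above 1 under 3 other settings of the analysis.

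**Figure D3:**
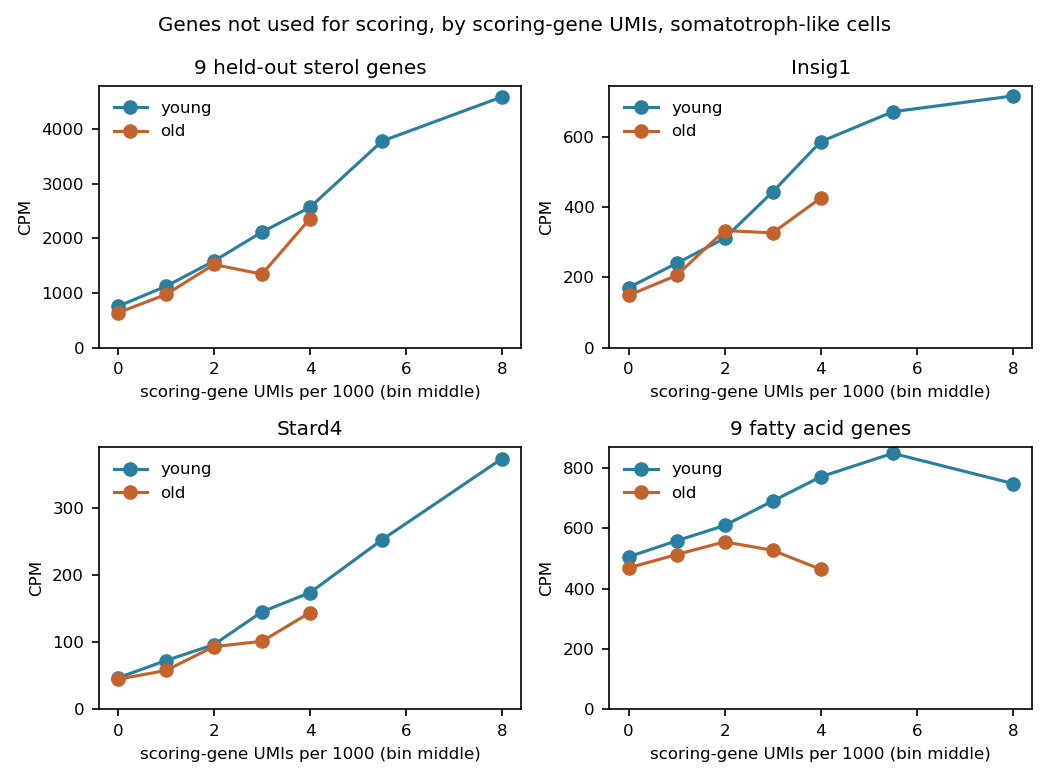
Level in CPM (vertical axes, from 0) of the 9 held-out sterol genes summed, Insig1, Stard4 and the 9 fatty acid genes summed, in somatotroph-like cells binned by UMIs of the scoring genes per 1000 thinned UMIs (horizontal axis, middle of each bin). Held-out genes run from 755 CPM at 0 UMIs to 4587 CPM at 7 to 9 UMIs in the young library, and fatty acid genes from 505 to 849 CPM at 5 to 6 UMIs.

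Across bins of the scoring count the held-out sum went up at each step in the young library: 755 CPM in 2098 cells with 0 scoring UMIs, 1121 CPM at 1, 1582 CPM at 2, 2114 CPM at 3, 2566 CPM at 4, 3777 CPM at 5 to 6 and 4587 CPM in the 21 cells with 7 to 9. In the old library it was 636, 971, 1520, 1343 and 2358 CPM from 0 to 4 UMIs, with a dip at 3 (57 cells), and the last bin held 29 cells. Srebf1 stayed between 28.2 and 41.4 CPM over the 7 young bins. Srebf2 went from 64.6 to 173 CPM over the first 6 of them and was 312 CPM in the last, of 21 cells.

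Rich cells differed from the others in quality measures as the clusters did. Malat1 was a median of 7.22% of UMIs in rich and 2.17% in other young cells, and 7.54% and 3.17% in old ones. Mitochondrial genes were 10.5% and 3.70% in the young and 7.03% and 3.21% in the old library, and Gh was 21.7% against 36.8% and 13.5% against 27.1%. Cluster 8 held 74.3% of the young and 68.4% of the old rich cells, against 23.4% and 25.2% of the others. Cluster 12 held none among its 278 young and 194 old scored cells, which allows shares of up to 1.32% and 1.88%. With rich cells chosen anew within narrower sets, of which those by cluster 8, cluster 2 and Malat1 were set after the values were seen, the held-out ratio was smaller and stayed above 1. It was 1.88 within young cluster 8, 1.57 and 1.24 within cluster 2 of the young and old library, and 1.93 and 1.83 when rich cells were chosen in every cluster and then summed. Among cells with 3 to 10% of UMIs from Malat1 it was 2.40 and 1.62. In old cluster 2, with 27 rich cells, Lss (0.540), Dhcr7 (0.985) and Idi1 (0.998) were not higher. Of the marker lists for other cell types, those of T or NK, dendritic and mast cells were at 0 in young rich cells and that of mast cells in old ones. Corticotroph markers, 4 of 5 detected in rich cells, summed to 1609 CPM in rich and 1213 CPM in other young cells, and to 6657 and 7669 CPM in old ones. Lactotroph markers, 3 of 4 detected in rich cells, summed to 1609 against 1225 CPM and 1892 against 2301 CPM. Their part in the ratios was not tested.

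Further genes of sterol and lipid metabolism were chosen by pathway. None of the 4 genes that process SREBP (Scap, Mbtps1, Mbtps2 and Insig2) reached 1.5-fold in rich cells of either library, where 20.6% of all genes in the young and 12.3% of those in the old library were higher. None of the 10 genes of efflux, storage and the LXR receptors (9 with enough UMIs in the old library) was higher by that fold, and Mylip, a ubiquitin ligase induced by LXR receptors, was lower in the old library, on 8 UMIs. In cluster 8 against the other clusters, Scap and Mbtps2 were higher and Insig2 lower by 1.5-fold in both libraries. Of the efflux, storage and LXR genes, Abca1 and Npc1 were higher there in both libraries, and Nr1h2 and Mylip in the old one alone. Npc2 and Ch25h, the latter on 1 UMI in cluster 8, were lower in the young one. Of all genes, 33.3% were higher and 21.9% lower in the young library, and 26.6% and 21.5% in the old one.

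Among all genes outside the member list, ranked by the smaller of the 2 ratios, Itpkc, Stat2, Sbno2 and Rel were among the 6 highest in rich cells. Itpkc, an inositol trisphosphate kinase, had ratios of 3.98 (3.26 to 4.83) and 2.13 (1.55 to 2.89). Stat2 and Rel, transcription factors of interferon and NF-kappaB signalling, had ratios of 2.83 and 2.36 in the young and 2.12 and 1.95 in the old library. Sbno2 had 2.996 and 2.04. Within young cluster 8 the ratio of Itpkc was 1.45 (0.989 to 2.06), of Stat2 1.49 (1.17 to 1.87), of Rel 1.69 (1.27 to 2.21) and of Sbno2 1.80 (1.53 to 2.11). In old cluster 8 these ratios were 2.64 (1.43 to 4.55), 1.55 (0.953 to 2.39), 1.31 (0.643 to 2.42) and 1.37 (0.956 to 1.92), and the last 3 intervals include 1. The 4 lowest, Klk1b16, Xlr3a, Sh2d3c and C2cd4d, rested on at most 8 UMIs in young and 2 in old rich cells, and the first 2 belong to families of near-identical copies whose reads may be divided uncertainly.

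Between ages, somatotroph-like cells had slightly less RNA of most members in the old library, relative to other genes. With hormone and mitochondrial genes left out of the total, the mevalonate and sterol enzymes had an old over young ratio of 0.880 (0.863 to 0.896) and the fatty acid enzymes of 0.899 (0.868 to 0.931). Of the 31 members 26 had a ratio under 1, against 47.9% of the 14811 genes tested, and their median log2 ratio was -0.21 against 0.02. By the 1.5-fold rule 1 member was lower and 0 were higher, while 8.62% of all genes were lower and 11.9% higher. With all UMIs as the total, in which Gh takes a smaller share in the old library, every log2 ratio shifted by 0.26. The sums then became 1.05 and 1.08, and 11 members stayed under a ratio of 1. The members' median minus that of all genes was -0.24, and 26 of the 31 lay below the median gene. These 2 values are the same with either total by construction, since the change of total shifts every gene alike.

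The 1 member past the fold was Dhcr7, with 39.0 CPM (36.7 to 41.4, 1076 UMIs) in the young and 21.7 CPM (18.6 to 25.2, 173 UMIs) in the old library, a ratio of 0.556 (0.471 to 0.654). It was 1.80-fold lower, a log2 ratio of -0.84, and with all UMIs as the total its log2 ratio was -0.58, just short of the limit. Mvd (ratio 0.678, 0.489 to 0.924), Fasn (0.707, 0.619 to 0.805) and Lss (0.720, 0.646 to 0.802) lay just outside it. The 2 most abundant members of each role lay nearer to 1. Hmgcs1 had a ratio of 0.811 (0.782 to 0.842) and Idi1 of 0.947 (0.900 to 0.996). Cyp51 had 0.931 (0.860 to 1.01) and Fads1 0.877 (0.798 to 0.962). Insig1 and Stard4 had ratios of 0.861 each, and Scd2 of 0.884 (0.831 to 0.941). The remaining members under 1 ran from Hsd17b7 at 0.771 and Fdft1 at 0.774 to Elovl6 at 0.969 and Acly at 0.982. The 5 members above 1 were Acaca (1.35, 1.16 to 1.55), Acss2 (1.20), Tm7sf2 (1.10, on 66 and 21 UMIs), Srebf2 (1.07, 0.979 to 1.17) and Msmo1 (1.06, 1.02 to 1.10). Of the 28 further genes 2 were lower and 2 higher by 1.5-fold, smaller shares than the 8.62% and 11.9% of all genes. The lower were Scap (56.0 to 35.0 CPM, ratio 0.625) and Gpam, which starts triglyceride synthesis (0.597). Higher were Soat1, which esterifies cholesterol for storage (39.4 to 68.8 CPM, ratio 1.75, 1.57 to 1.94), and Nr1h3, the receptor LXR-alpha (4.35 to 7.66 CPM, ratio 1.76, 1.27 to 2.41).

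**Figure D4:**
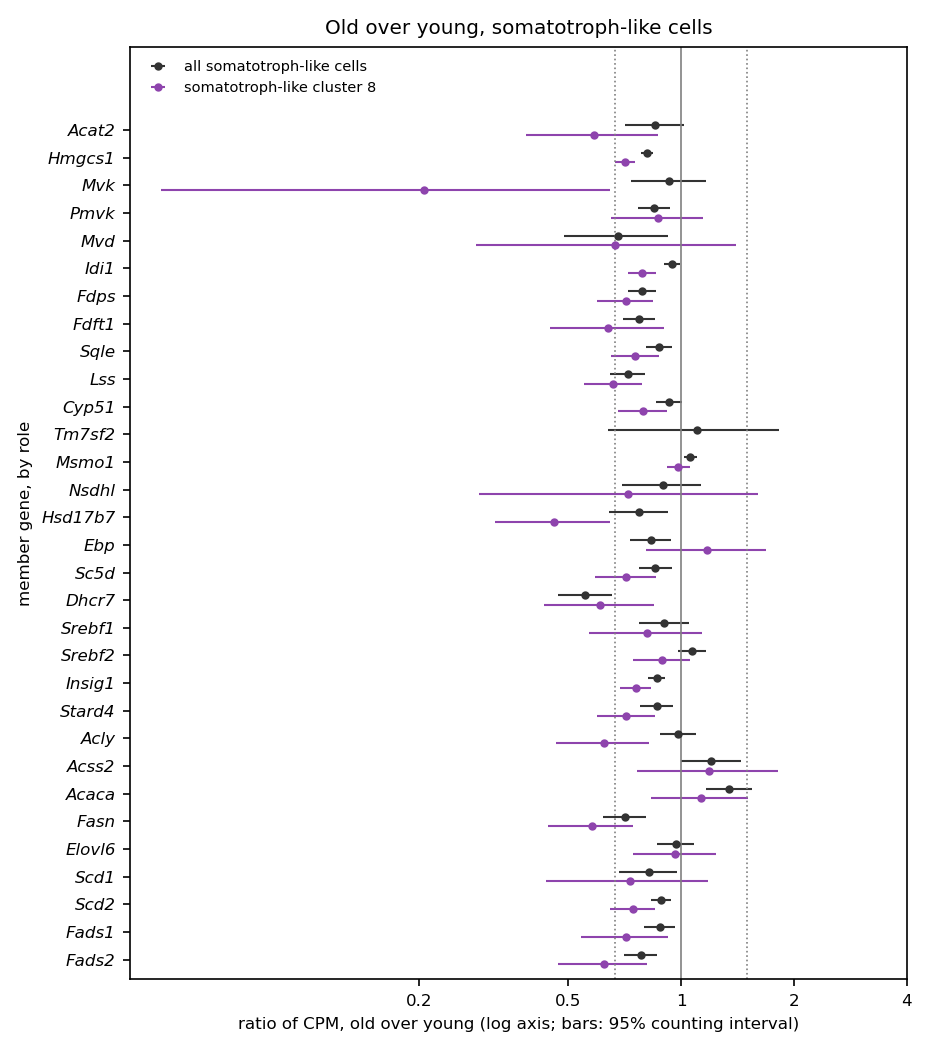
Ratio of CPM in the old over the young library (horizontal log axis, bars for the 95% counting interval) for each of the 31 members in all somatotroph-like cells (dark) and in cluster 8 alone (purple; members with at least 20 UMIs). Dotted lines mark 1.5-fold in either direction. Most points lie left of 1, Dhcr7 at 0.556 lies farthest left of the dark points, and the median log2 ratio is -0.21 for the dark and -0.45 for the purple points.

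The clusters of somatotroph-like cells differed in size between the libraries, and within each of them the sterol ratio was also under 1. The old over young ratio was 0.617 (0.554 to 0.686) in cluster 1, 0.799 (0.779 to 0.819) in cluster 2, 0.779 (0.753 to 0.806) in cluster 8, 0.911 (0.827 to 1.00) in cluster 11 and 0.946 (0.809 to 1.10) in cluster 12. The interval of the last 2 includes 1. With all UMIs as the total the ratio stayed under 1 in clusters 1 (0.723), 2 (0.943), 8 (0.856) and 11 (0.976), and was 1.20 in cluster 12. When each cluster was given its young share, the ratio for the class was 0.774. The median log2 ratio of the members tested was -0.30 in cluster 1, -0.26 in cluster 2, -0.45 in cluster 8, -0.09 in cluster 11 and 0.01 in cluster 12, where the median over all genes ran from 0.0047 to 0.13. In cluster 8, the sterol-richest, 9 of 30 members tested were at least 1.5-fold lower in the old library, where 11.2% of all genes were, and 0 were higher: Acat2, Mvk, Fdft1, Lss, Hsd17b7, Dhcr7, Acly, Fasn and Fads2. The share of all genes higher in cluster 8 was 10.8%, and Mvk there rested on 3 old UMIs. In cluster 2 Lss and Dhcr7 were lower and 0 higher among 31, where 7.98% of all genes were lower and 10.2% higher. In cluster 1 there were 8 lower (Acat2, Hmgcs1, Pmvk, Mvd, Idi1, Msmo1, Hsd17b7 and Dhcr7) and 1 higher (Acaca) among 30, with shares of 13.4% and 18.2%. Old cluster 1 held 62 cells, and Acat2 (5 old UMIs), Hsd17b7 (4) and Mvd (2) had intervals that include 1 there. In cluster 11 there were 3 lower (Pmvk, Fdft1 and Ebp) and 2 higher (Tm7sf2 and Acaca) among 31, with shares of 12.8% and 16.1%. The interval of Tm7sf2 there, on 5 old UMIs, ran from 0.528 to 5.37. In cluster 12 there were 0 lower and 2 higher (Srebf1 and Srebf2) among 17, with shares of 7.74% and 20.4%. Their intervals there include 1 (Srebf1 0.707 to 4.22, Srebf2 0.746 to 3.17). In cluster 8 Msmo1 was at 881 young and 867 old CPM (ratio 0.985, 0.919 to 1.05), while Hsd17b7, which acts in the same demethylation, went from 65.8 to 30.2 CPM (0.459, 0.319 to 0.646). Fasn there went from 97.9 to 56.6 CPM (0.578, 0.443 to 0.745). Among cells with 3 to 10% of UMIs from Malat1, a restriction chosen after the values were seen, 10 members were lower and the sterol ratio was 0.666.

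The share of sterol-rich cells was lower in the old library at either limit. At 4 or more scoring UMIs of 1000 it was 5.00% (4.37 to 5.70) of young and 3.14% (2.26 to 4.23) of old cells, and at 3 or more 11.2% (10.2 to 12.2) and 7.50% (6.13 to 9.07). Within cluster 8 it was 28.1% (25.4 to 30.8) of 1108 young and 18.01% (14.2 to 22.3) of 372 old cells at 3 or more. Cells of 1 library share their glands and handling, so these intervals do not cover differences between animals.

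Other classes differed in direction. The sterol sum of the free RNA itself went from 970 young to 633 old CPM, a ratio of 0.652 (0.569 to 0.752). Its fatty acid sum had a ratio of 0.965 (0.767 to 1.23). The part of free RNA in the age ratios of these other classes was not tested. In stem cell-like cells the sterol sum had an old over young ratio of 0.774 (0.728 to 0.822), and Fdps (58.9 to 32.6 CPM), Hsd17b7 (17.2 to 10.7 CPM) and Ebp (51.2 to 30.9 CPM) were at least 1.5-fold lower among 30 members tested, where 5.28% of all genes were lower. None was higher, against 10.6% of all genes. Of those 30 members 25 had a ratio under 1, with a median log2 ratio of -0.27 against 0.04 over all genes. In corticotroph-like cells the sterol ratio was 0.889 (0.843 to 0.937), with 3 of 31 members lower (Pmvk, Dhcr7 and Fads2) and 2 higher (Elovl6 and Scd1), against 7.41% and 11.7% of all genes. Fads2 there went from 28.9 to 12.1 CPM (ratio 0.420, 0.282 to 0.608). In lactotroph-like cells it was 0.900 (0.842 to 0.962), with 4 of 30 members lower (Mvk, Pmvk, Fdft1 and Fads1) and 3 higher (Cyp51, Acss2 and Srebf1), against 8.47% and 21.2% of all genes. There 14 of the 30 had a ratio under 1, and their median log2 ratio was 0.07 against 0.15 over all genes. The 7 mevalonate enzymes alone had a ratio of 0.733 (0.662 to 0.812) in lactotroph-like cells, 0.814 (0.755 to 0.876) in corticotroph-like cells and 0.752 (0.689 to 0.820) in stem cell-like cells. In somatotroph-like cells it was 0.848 (0.825 to 0.870). The 11 sterol enzymes alone had 1.06 (0.969 to 1.16) in lactotroph-like, 0.980 (0.908 to 1.06) in corticotroph-like, 0.795 (0.730 to 0.865) in stem cell-like and 0.915 (0.891 to 0.940) in somatotroph-like cells.

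Macrophage-like cells combined a lower sterol sum (0.898, 0.809 to 0.996) with a higher fatty acid sum, at 119 young and 162 old CPM (1.37, 1.18 to 1.58). In them 6 of 29 members were at least 1.5-fold higher (Hsd17b7, Fasn, Elovl6, Scd1, Srebf1 and Stard4), a share near the 18.8% of all genes, and 3 were lower (Hmgcs1, Mvd and Fdps), against 4.41%. The 6 had at most 42 UMIs in the young library, and the intervals of Elovl6 (2.15, 1.02 to 4.58) and Srebf1 (1.71, 1.08 to 2.69) excluded 1. In T or NK cell-like cells the sterol sum was 302 young and 416 old CPM (1.38, 1.15 to 1.65), and 7 of 20 members were higher, against 20.5% of all genes: Hmgcs1 (37.0 to 77.6 CPM), Idi1 (19.3 to 46.8 CPM), Fdft1, Cyp51, Sc5d, Fasn and Scd2. Pmvk and Elovl6 were lower there, against 6.12% of all genes. In pituicyte-like cells the sterol sum was 520 and 625 CPM (1.20, 1.01 to 1.43), with markers of other cells moving alongside. Somatotroph markers in these cells summed to 53182 young and 77170 old CPM of all UMIs and corticotroph markers to 4420 and 14316, and their part in the sterol sum was not tested. Of 25 members 6 were higher (Hmgcs1, Msmo1, Sc5d, Fasn, Elovl6 and Scd1), a share near the 19.3% of all genes, and 2 were lower (Ebp and Fads1), against 10.5%. Scd1 in B cell-like cells had a ratio of 1.55 (1.11 to 2.16). These classes had 56 to 757 young cells, and no difference between classes was tested. In T or NK cell-like cells somatotroph markers went from 74441 young to 37866 old CPM of all UMIs. Corticotroph markers there went from 1807 to 6260 CPM. In B cell-like cells somatotroph markers went from 109199 to 54174 CPM and corticotroph markers from 2391 to 9031 CPM. The part of this carried-over RNA in the ratios was not tested.

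**Figure D5:**
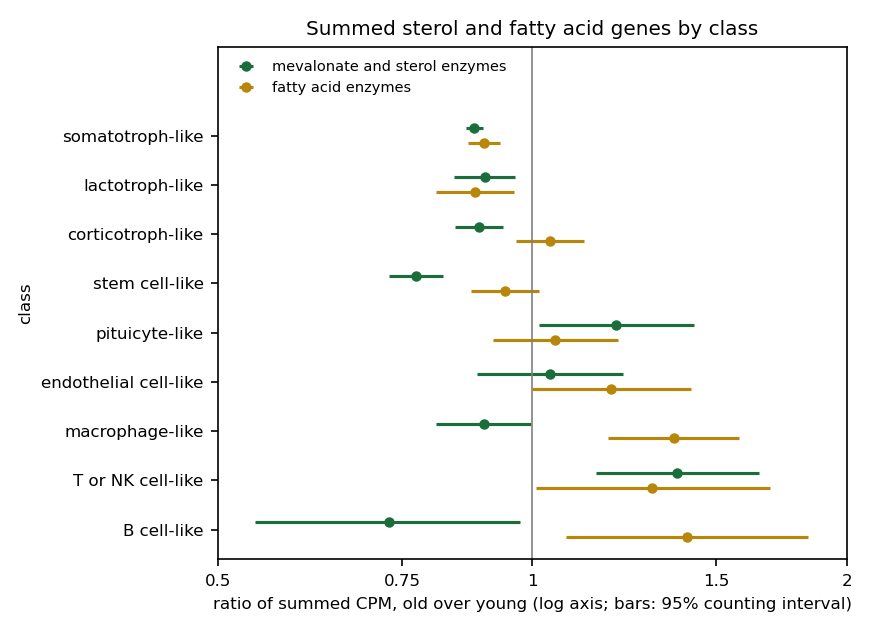
Ratio of summed CPM, old over young (horizontal log axis, bars for the 95% counting interval), of the 18 mevalonate and sterol enzymes and the 9 fatty acid enzymes in 9 classes. Sterol points lie under 1 in somatotroph-like, lactotroph-like, corticotroph-like, stem cell-like, macrophage-like and B cell-like cells with their intervals, above 1 in pituicyte-like and T or NK cell-like cells, and at 1.04 with an interval across 1 in endothelial cell-like cells.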

How the data were processed

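Each deposited matrix gives UMI counts as the authors left them, unscaled and for every barcode seen, per the file headers. The 3′ libraries came from pooled glands, per the labels' protocols. The submitters' processing notes name Cell Ranger 6.0.2 and the genome GRCm39, and the header of each matrix gives software version 4. The libraries held 154510099 young and 138427393 old UMIs.

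Barcodes were kept with at least 2000 UMIs, 500 genes and at most 15% mitochondrial UMIs (9210 young and 9783 old). The top 7.37% and 7.83% by a doublet score, the share of simulated doublets among a cell's neighbours, were removed at an expected 0.8% per 1000 barcodes, capped at 10%. Both libraries were clustered together with 3000 variable genes, leaving out the 31 members and 28 further pathway genes, and with 40 principal components, 15 nearest neighbours and the Leiden method (resolution 1) (Python 3.11.15, scanpy 1.11.5, igraph 0.11.9, scipy 1.17.1). Clusters took the class with the highest mean log2 fold of its markers, of 22 classes, where that was at least 1, led the next class by 0.5 and had 3 markers detected. A cluster that correlated at 0.95 or more with barcodes of 10 to 100 UMIs was left out as free RNA. Genes with at least 20 UMIs over the groups compared were compared in CPM and called at a 1.5-fold difference. With 1 library per age no test was run.

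The members, lists and rules were chosen with earlier results of these data known. Members named in full were those past 1.5-fold with at least 50 UMIs in somatotroph-like cells and the 2 most abundant of each role, with all others accounted for. Genes outside the list were the 6 highest and 4 lowest in rich cells by the less extreme ratio of the 2 libraries; some of these and of the further pathway genes are not reported here. The Poisson sums and the choice of rich cells were tested on simulated data. Alternatives covered UMI, mitochondrial and doublet limits, resolution, totals, free RNA, cluster weights, folds, gene sets and thinning depth.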

Additional observations from a re-analysis of the deposited data

Results flagged for a closer look

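In 5 cases a class had a summed old over young ratio above 1 with its counting interval, while the same sum was below 1 with its interval in other classes. For the mevalonate and sterol enzymes these were pituicyte-like cells at 1.20 (1.01 to 1.43) and the T or NK class at 1.38 (1.15 to 1.65), against 6 classes below 1. For the fatty acid enzymes they were B cell-like cells at 1.41 (1.08 to 1.84), macrophage-like cells at 1.37 (1.18 to 1.58) and the T or NK class at 1.30 (1.01 to 1.69), against somatotroph-like and lactotroph-like cells. The difference between classes was not tested, since each age has 1 library. The median gene had a ratio above 1 in these classes too, at 1.06 in pituicyte-like, 1.11 in T or NK, 1.09 in B cell-like and 1.14 in macrophage-like cells. The lower bounds of the pituicyte-like sterol sum and of the T or NK and B cell-like fatty acid sums do not exceed those medians.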

How the results depend on the processing

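With 1 library per age, a value was called moved when it left its counting interval. The old over young ratio of the sterol enzymes in somatotroph-like cells was 1.05 with all UMIs as the total and that of the fatty acid enzymes 1.08, both above 1. Otherwise the sterol ratio was 0.955 with at most 10% mitochondrial UMIs, 0.901 at resolution 0.5, 0.808 as a mean over cells, 0.774 with each cluster at its young share, 0.799 in cluster 2, 0.779 in cluster 8 and 0.666 at 3 to 10% Malat1. The fatty acid ratio was 0.845 as a mean over cells, 0.932 with those cluster weights, 0.748 in cluster 8 and 0.740 at 3 to 10% Malat1. Members at least 1.5-fold lower numbered 0 with all UMIs as the total or a fold of 2, 2 with free RNA subtracted, as a mean over cells or in cluster 2, 3 with those cluster weights, 9 in cluster 8 and 10 at 3 to 10% Malat1. Higher members numbered 1 with all UMIs as the total and 1 with those cluster weights. Between 23 and 28 members had a ratio under 1 in the 11 alternatives other than all UMIs, where 11 did.

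The count of members led by 1 class was 11 to 16 young and 10 to 17 old, and that class was somatotroph-like except in the old library with all UMIs as the total, where it was pituicyte-like (10). The held-out ratio of rich over other cells was 2.79 young and 2.25 old without doublet removal, 2.28 and 1.87 with at most 10% mitochondrial UMIs, 3.64 and 2.25 with all UMIs, 2.96 and 2.27 with at least 0.5% Malat1, 2.40 and 1.62 at 3 to 10%, 1.57 and 1.24 in cluster 2, 2.76 and 2.31 with scoring and held-out genes exchanged, 3.23 and 2.53 thinned to 2000 UMIs, and 1.93 and 1.83 within each cluster. It was 1.88 in young cluster 8 and 2.21 with the limit at 25% of young cells. In the old library it was 2.28 with a minimum of 3000 UMIs and 2.54 at resolution 0.5. With the limit at 25% of old cells it was 2.11, which stayed within its interval. Old cluster 8 gave no value, with fewer than 20 rich cells after its cells were thinned anew. In the main thinning 34 of its 372 cells (9.14%) had 4 or more scoring UMIs. Single members crossed 1 in 8 cases: Acaca young (0.987 with at most 10% mitochondrial UMIs, 0.916 in cluster 2), Scd1 old (1.46 with at most 10% mitochondrial UMIs, 1.59 with at least 0.5% Malat1, 1.13 with genes exchanged), and in old cluster 2 Idi1 (0.998), Lss (0.540) and Dhcr7 (0.985). The restrictions to cluster 8, cluster 2 and 3 to 10% Malat1 were chosen after seeing the data. No paired analysis was possible because each age has 1 library, and no library could be left out. Depth limits members with few UMIs, such as Tm7sf2 and Mvd, and the small classes.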

Other observations

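Classes with fewer than 50 cells in a library entered no comparison, and 1 of them stood out in fatty acid genes. The 34 oligodendrocyte-like cells, all in the old library, had 2729 CPM (2513 to 2959) of the 9 fatty acid enzymes, of which Scd2 made up 2278 CPM (490 UMIs), against 862 and 393 CPM in old pituicyte-like cells. Their mevalonate and sterol enzymes summed to 1200 CPM (1058 to 1355), between the old somatotroph-like and lactotroph-like sums. Melanotroph-like cells, the hormone cells of the intermediate lobe, had sterol sums of 867 CPM in 46 young and 1116 CPM in 148 old cells. Gonadotroph-like cells had 866 CPM in 64 young and 828 CPM in 28 old cells, and monocyte-like cells 582 CPM in 55 and 452 CPM in 44 cells. The 5769 old barcodes left out as free RNA had 628 CPM of the sterol enzymes and 326 CPM of the fatty acid enzymes.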
